A study of Mus musculus with 30 samples.

Results

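Transcripts of 10 enzymes that turn arachidonic acid into prostaglandins, thromboxane and leukotrienes were measured by RNA-seq in whole bone marrow (BM) and in F4/80+ cells sorted from visceral fat as adipose tissue macrophages (ATMs). The enzymes were taken by name, as the genes *Ptgs1*, *Ptgs2*, *Ptges*, *Tbxas1*, *Hpgds*, *Alox5*, *Alox5ap*, *Lta4h*, *Ltc4s* and *Alox15*, and all 10 had a row in both deposited count tables, of 13353 genes in BM and 17059 genes in ATMs. The rule that finds them uses no measured value, although the family was chosen with earlier results of these data known. The 30 libraries fell into 5 groups of 3 per tissue. All recipients were irradiated (700 cGy and 400 cGy) and received a 1:1 mixture of CD45.2+ BM cells from Shp2E76K/+;LysM-Cre+ donors, in which LysM-Cre acts in myeloid cells, and CD45.1+ BM cells of Boy/J mice. WT recipients were lean C57BL/6 mice given no drug. Ob/Ob recipients, which lack leptin and become obese, were treated for 30 days from 8 weeks after the transplant with Vehicle, with the GLP-1 receptor agonist beinaglutide at 3 mg/kg subcutaneously (GLP1RA), with 200 µg per mouse of an antibody against IL-17A intraperitoneally 3 times a week (Anti-IL17A), or with both agents (Combo). According to the labels the mice were about 12 to 14 weeks old, of both sexes, and came from 1 batch with 3 mice per group. The study's methods give a younger range for recipients at transplantation, which together with the treatment schedule does not match the labels' age, so the age at sampling is uncertain. The label for genotype was C57BL/6J in every sample and named no donor, and a figure legend of the study names WT donor cells for an ATM comparison, so the donor of the WT ATM libraries is uncertain. Because Vehicle and WT recipients differ in *Lep* genotype, body weight and drug vehicle at once, these cannot be told apart in that comparison.

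Prostaglandin and leukotriene synthesis starts when phospholipases release arachidonic acid from membranes. The cyclooxygenases COX-1 (*Ptgs1*, present in many cells at rest) and COX-2 (*Ptgs2*, induced by cytokines and microbial products) make prostaglandin H2, which terminal synthases turn into prostaglandin E2 (*Ptges*), thromboxane A2 (*Tbxas1*) or prostaglandin D2 (*Hpgds*). In the other branch 5-lipoxygenase (*Alox5*) works with its membrane helper FLAP (*Alox5ap*) to make leukotriene A4, which becomes the neutrophil attractant leukotriene B4 through *Lta4h* or the cysteinyl leukotriene C4 through *Ltc4s*, while 12/15-lipoxygenase (*Alox15*) makes other oxidized fatty acids. Neutrophils, macrophages, mast cells, eosinophils and platelets hold different parts of this machinery, and in fat tissue prostaglandins and leukotriene B4 are known as products of both immune and stromal cells.

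Assigned counts per library ranged from 31086184 to 39925495 in BM and from 24876074 to 45300263 in ATMs. Values below are normalized counts, that is, deposited counts scaled by TMM to the mean effective size of the libraries of that tissue, with errors as SD and n = 3. WT library 1 of BM stood apart, with a chi-square of 34.2 and 26.2 per degree of freedom against the other WT libraries and of 2.01 to 4.14 within all other pairs of BM replicates, so comparisons with WT in BM were also made without it. The sort was checked by marker sums: in ATMs the 10 genes of monocytes and macrophages summed to 65900–70671 in Vehicle, while 7 neutrophil genes summed to 628589–670031 there and to 7164–7908 in WT. The Vehicle libraries labelled as ATMs thus carried more neutrophil than macrophage marker counts. *Adgre1*, which encodes F4/80 itself, averaged 6913 in WT, 1404 in Vehicle, 12939 in GLP1RA, 29035 in Anti-IL17A and 13285 in Combo. The labels call the groups matched for sex, yet transcripts from the sex chromosomes differed by group: *Xist* was 0 to 2.60 in WT BM and 6339 to 6712 in Vehicle BM, and the Y-linked *Ddx3y* was 3678 to 3767 in WT ATMs and 247 to 537 in Vehicle ATMs. All 3 Vehicle BM libraries held *Xist*, at 6339 to 6712, together with *Ddx3y*, at 695 to 743. Each recipient was given cells of CD45.2+ and CD45.1+ donors, and the labels named no donor. Both transcripts can therefore occur in a single mouse, and in BM they need not give the sex of the recipient. Whether the libraries of a group are separate mice, as labelled, or parts of a pool was not settled by the files, and for a pool n = 3, the SDs and the p-values would cover technical spread only. The sex makeup of the libraries cannot be told apart from the groups, and in bulk RNA fewer cells of a type cannot be told apart from less RNA per cell.

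As CPM (counts scaled to library size) per kilobase of exon, a scale for comparing genes of unequal length, 3 genes of the leukotriene branch stood highest in BM in every group, while *Ltc4s* ranked 8 to 10 of 10. *Alox5ap* had a level of 411 ± 10.2 CPM per kilobase in WT BM, followed by *Lta4h* at 82.2 ± 1.30, *Alox5* at 52.6 ± 2.09 and *Ptgs1* at 13.0 ± 0.137. These 4 genes kept this order in all 5 BM groups. In WT ATMs 3 prostaglandin genes led instead, with levels of 243 ± 5.81 for *Ptgs2*, 78.7 ± 4.31 for *Ptges* and 67.7 ± 2.75 for *Ptgs1*, and *Alox5ap* at 35.8 ± 3.92, while the synthases *Tbxas1* and *Hpgds* were the lowest of the 10 there. In the 4 Ob/Ob groups of ATMs *Alox5ap* had the highest level, from 61.3 ± 1.60 in GLP1RA to 133 ± 9.82 in Vehicle. The thromboxane synthase *Tbxas1* had its lowest level in Vehicle ATMs, at 1.24 ± 0.557, and reached 22.5 ± 0.661 in Anti-IL17A. Levels of *Ltc4s* and *Alox5ap* carry a limit, since 26.4% and 13.3% of their exon bases are shared with the overlapping genes *Gm26542* and *Gm19719* and the libraries did not keep strand. The length counts all annotated exons of a gene, used or not, which for *Tbxas1* were 9094 bases. The rank of *Tbxas1* in WT ATMs depends on that length. Its normalized counts there, 2085 ± 131, exceeded those of *Alox15* (1282 ± 40.6) and *Ltc4s* (629 ± 61.2). *Hpgds* was lowest by count too, at 621 ± 62.1.

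**Figure D1:**
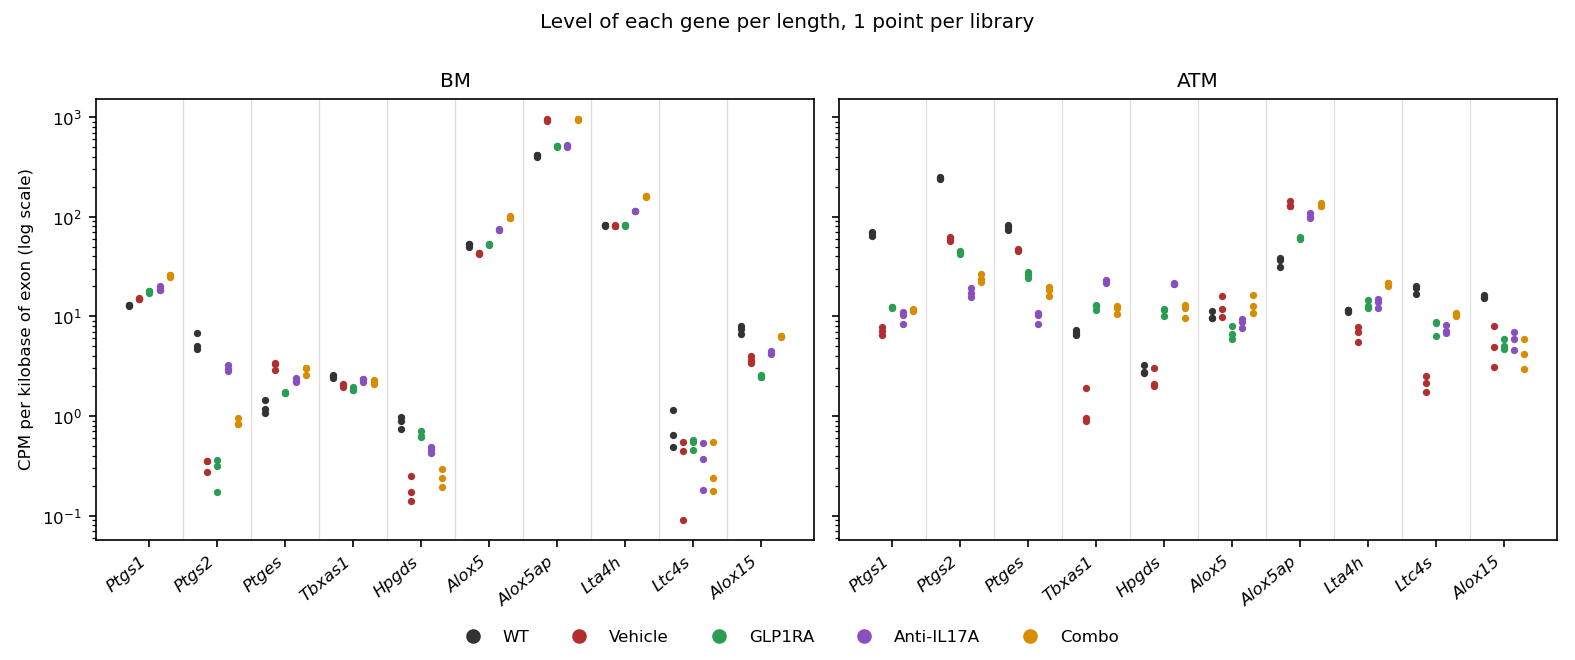
Level of each enzyme in CPM per kilobase of exon (log axis) in the 5 groups of BM and of ATMs, where each point is 1 of the 3 libraries of a group. *Alox5ap* sits highest in all BM groups and in the 4 Ob/Ob groups of ATMs, while *Ptgs2* sits highest in WT ATMs at 243 ± 5.81.

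Promoter sequence was read from RefSeq (GRCm38.p6) as the 250 bases before the start, for 8 of the 10 enzymes, with *Alox5ap* and *Alox15* not matched. Promoters are printed for both cyclooxygenases, whose group orders differed in BM, and for *Tbxas1* and *Hpgds*, which were both higher in all treated ATM groups than in Vehicle. The RefSeq starts used for *Tbxas1* and *Hpgds* lie inside the gene bounds of the GENCODE annotation. Capitals mark the motifs found on either strand.
Ptgs2 (chr1:150099781-150100030, plus strand): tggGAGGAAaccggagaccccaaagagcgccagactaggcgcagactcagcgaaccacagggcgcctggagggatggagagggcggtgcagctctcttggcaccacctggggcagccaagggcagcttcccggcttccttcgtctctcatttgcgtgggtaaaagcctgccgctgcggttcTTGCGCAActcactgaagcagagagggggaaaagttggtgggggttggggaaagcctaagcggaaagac
Ptgs1 (chr2:36230176-36230425, plus strand): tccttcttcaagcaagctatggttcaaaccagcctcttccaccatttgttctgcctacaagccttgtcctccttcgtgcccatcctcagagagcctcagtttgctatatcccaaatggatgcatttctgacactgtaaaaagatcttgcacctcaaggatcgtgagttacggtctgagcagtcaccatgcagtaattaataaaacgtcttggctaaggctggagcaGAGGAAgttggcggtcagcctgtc
Tbxas1 (chr6:38918736-38918985, plus strand): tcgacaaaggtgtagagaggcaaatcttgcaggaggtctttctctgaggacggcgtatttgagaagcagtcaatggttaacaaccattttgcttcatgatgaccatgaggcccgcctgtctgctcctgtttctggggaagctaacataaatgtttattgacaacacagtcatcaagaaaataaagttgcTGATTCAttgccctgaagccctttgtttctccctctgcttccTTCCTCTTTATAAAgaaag
Hpgds (chr6:65144731-65144980, minus strand): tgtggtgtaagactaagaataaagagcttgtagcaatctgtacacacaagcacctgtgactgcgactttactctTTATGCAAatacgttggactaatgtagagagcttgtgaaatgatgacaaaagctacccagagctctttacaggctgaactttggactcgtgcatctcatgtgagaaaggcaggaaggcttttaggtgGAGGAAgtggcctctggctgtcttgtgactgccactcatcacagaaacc

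The letters GAGGAA, a core bound by the myeloid factor PU.1, occurred in 7 of the 8 promoters, all but that of *Ltc4s*, and in 23.3% of 32841 mouse promoters of the same length. TTGCNNAA, the C/EBP form, was in the promoters of *Ptgs2* (positions -69 to -62 from the start) and *Hpgds* (-176 to -169) and in 9.57% of all. TGANTCA, the AP-1 form, was in that of *Tbxas1* (-61 to -55) and in 6.75% of all, and TATAAA was there at -11 to -6 and in 12.4% of all, next to the PU.1 letters at -19 to -14. TGACG, the core of a cAMP response element, and the NF-kB consensus matched none of the 8 windows and 17.8% and 3.90% of all. A match gives only that these letters are present, and their use in these cells was not measured.

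In BM, Vehicle recipients had 16.7-fold less *Ptgs2* and 4.60-fold less *Hpgds* than WT recipients, together with 2.61-fold more *Ptges* and 2.28-fold more *Alox5ap*. A gene was called when edgeR's quasi-likelihood test gave a Benjamini-Hochberg adjusted p below 0.05 over all genes of the tissue and the absolute log2 fold change was above 1. Of the 10 enzymes 2 were called higher and 3 lower in Vehicle than in WT, beside 19.5% of all genes tested (9.44% higher and 10% lower). By the adjusted p alone 9 of 10 passed, beside 76.6% of all genes, so the share past this limit says little in BM, where replicate libraries lay close together (a biological coefficient of variation of 3.51%). The comparison had a median log2 fold change of -0.30 over the 10 enzymes and -0.02 over all genes. Across the 5 groups together 9 of 10 enzymes passed the adjusted p, all but *Ltc4s* (adjusted p = 0.0522), beside 95.1% of all genes.

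Compared with Vehicle, 1 enzyme was called in GLP1RA BM (*Hpgds*, higher), beside 16.7% of all genes tested (7.6% higher and 9.08% lower). In Anti-IL17A BM 2 were called (*Ptgs2* and *Hpgds*, both higher), beside 16.1% of all genes tested (7.65% higher and 8.46% lower). In Combo BM 2 were called (*Ptgs2* and *Alox5*, both higher), beside 17.7% of all genes tested (6.58% higher and 11.1% lower). Past the adjusted p alone were 6, 9 and 5 enzymes, beside 72.8%, 73% and 73.8% of all genes. All 3 comparisons use the same Vehicle libraries, so they are not independent of each other. The median log2 fold change over the 10 enzymes was -0.06 in GLP1RA, 0.28 in Anti-IL17A and 0.55 in Combo, beside 0.01, 0.01 and 0.02 over all genes. At 1 or 2 of 10, the called enzymes were near the background share in each case.

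**Figure D2:**
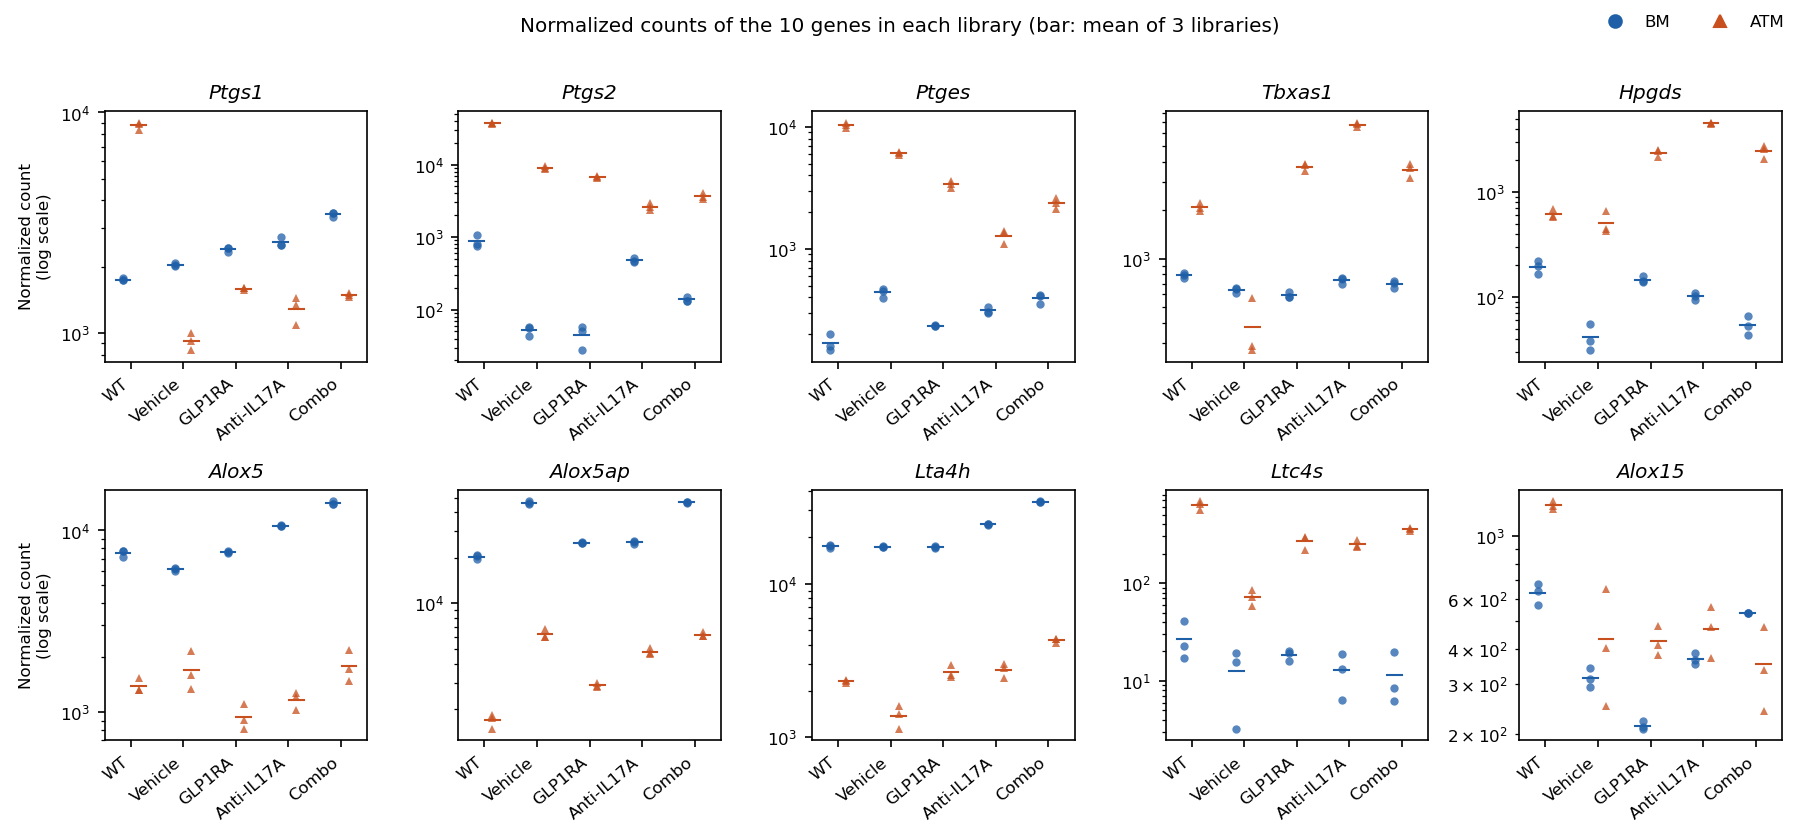
Normalized counts of each enzyme (log axis) in every library of the 5 groups, BM and ATMs drawn separately; each point is 1 library. In BM the Vehicle and GLP1RA libraries of *Ptgs2* lie between 27.6 and 57.8, below all other libraries, and in ATMs the Vehicle libraries of *Tbxas1* lie between 270 and 570, below all others.

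*Ptgs2* (chromosome 1, 150100031 to 150108227, plus strand in GRCm38) was the enzyme that differed most in BM. Its libraries held 1078, 795 and 754 normalized counts in WT and 56.7, 56.9 and 43.2 in Vehicle (log2 fold change -4.06, SE 0.18, adjusted p = 1.8e-14). WT library 1 was the highest, and without it the log2 fold change was -3.88. GLP1RA libraries held 50.6, 57.8 and 27.6, which overlapped Vehicle (log2 fold change -0.19, SE 0.27, adjusted p = 0.548). Anti-IL17A libraries, at 467, 449 and 513, lay 9.06-fold above Vehicle (log2 fold change 3.18, SE 0.19, adjusted p = 3.49e-12). Combo libraries, at 151, 133 and 131, lay 2.64-fold above Vehicle (log2 fold change 1.40, SE 0.23, adjusted p = 1.3e-05), below every Anti-IL17A library and below every WT library. The order of the means was WT, Anti-IL17A, Combo, Vehicle and GLP1RA, and only the last pair overlapped. Its constitutive relative *Ptgs1* (chromosome 2, 36230426 to 36252272, plus strand) moved in another order, with 1771, 1750 and 1735 in WT, 2041, 2075 and 2013 in Vehicle and 3495, 3514 and 3354 in Combo. No group of *Ptgs1* overlapped its neighbour in the order WT, Vehicle, GLP1RA, Anti-IL17A and Combo, yet each step was small, and Combo exceeded Vehicle by 1.69-fold (log2 fold change 0.76, SE 0.039, adjusted p = 1.18e-20). Markers of platelets, which carry COX-1, summed to 3663–3709 in WT BM and 1955–2026 in Combo BM, and the part of platelets in the *Ptgs1* result was not tested.

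The terminal prostanoid synthases did not move together in BM. *Ptges* (chromosome 2, 30889471 to 30929863, minus strand), the inducible prostaglandin E synthase, had 161, 148 and 199 in WT and 454, 470.4 and 396 in Vehicle (log2 fold change 1.39, SE 0.11, adjusted p = 3.94e-15). Every Vehicle library was above every WT library. GLP1RA libraries, at 237, 232 and 232, were below Vehicle (log2 fold change -0.91, SE 0.1, adjusted p = 1.31e-10) and under the fold limit, and Combo libraries, at 416, 352 and 413, overlapped Vehicle. *Hpgds* (chromosome 6, 65117293 to 65144908, minus strand), the prostaglandin D synthase of mast cells and other blood cells, showed the opposite direction. It had 218, 166 and 199 in WT and 38.6, 55.8 and 31.2 in Vehicle (log2 fold change -2.20, SE 0.18, adjusted p = 4.97e-14). GLP1RA libraries held 158, 138 and 141 (log2 fold change 1.79, SE 0.19, adjusted p = 4.57e-11) and Anti-IL17A libraries 102, 94.4 and 109 (log2 fold change 1.26, SE 0.20, adjusted p = 3.65e-07). Both single-agent groups were thus above Vehicle in every library, whereas Combo, at 43.2, 52.9 and 65.7, overlapped it (log2 fold change 0.35, SE 0.22, adjusted p = 0.149). Mast cell and basophil markers had the highest sum in Vehicle BM, 41803–43274 against 21803–23162 in WT, and *Hpgds* had its lowest mean there. Of the 8 marker genes 1 was called higher and 0 lower in Vehicle than in WT (median log2 fold change 0.37). In GLP1RA against Vehicle 3 were called higher and 5 lower. The part of these cells in the *Hpgds* result was not tested. *Tbxas1* (chromosome 6, 38875404 to 39084585, plus strand), thromboxane synthase, varied little, with group means from 591 ± 25.1 in GLP1RA to 787 ± 27.3 in WT and no call in these comparisons.

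In the leukotriene branch of BM, FLAP and its partner enzymes followed different groups. *Alox5ap* (chromosome 5, 149264767 to 149288153, plus strand) had 19748, 20431 and 20737 in WT and 45088, 46331 and 47164 in Vehicle (log2 fold change 1.19, SE 0.023, adjusted p = 3.25e-35). Combo libraries, at 46856, 47004 and 45897, overlapped Vehicle, while GLP1RA averaged 25142 ± 179 and Anti-IL17A 25330 ± 431, both below Vehicle in every library but under the fold limit (log2 fold changes -0.88 and -0.87). Summed monocyte and macrophage markers were also highest in Vehicle BM, at 117584–123544 against 48157–49013 in WT and 47430–47807 in Combo. The 10 genes did not all follow this sum. In Vehicle against WT 3 were called higher and 2 lower, with a median log2 fold change of 0.20. In Combo against Vehicle 1 was called higher and 5 lower. The part of these cells in the *Alox5ap* result was not tested. *Alox5* (chromosome 6, 116410077 to 116461178, minus strand) had 6003, 6154 and 6177 in Vehicle and 14029, 14434 and 13977 in Combo (log2 fold change 1.21, SE 0.027, adjusted p = 2.83e-33). Anti-IL17A libraries lay between, at 10538, 10772 and 10630, and the GLP1RA and WT libraries overlapped at 7602 ± 89.7 and 7519 ± 299. *Lta4h* (chromosome 10, 93453411 to 93484875, plus strand), the leukotriene A4 hydrolase, averaged 17474 ± 276 in WT, 17388 ± 234 in Vehicle and 17361 ± 194 in GLP1RA, and these 3 groups overlapped. Anti-IL17A, at 24348 ± 263, and Combo, at 34031 ± 247, stood above them, Combo by 1.96-fold over Vehicle (log2 fold change 0.97, SE 0.022, adjusted p = 6.93e-33), just under the fold limit. *Alox5* and *Lta4h* thus had their highest means in Combo, where neutrophil markers summed to 3506314–3580401 against 3153129–3247174 in Vehicle. Gene by gene, 4 of the 7 neutrophil genes were called higher and 0 lower in Combo than in Vehicle, with a median log2 fold change of 1.06. In Anti-IL17A 1 was called higher and 0 lower (median 0.73), although the sum there, 2503288–2543502, was below Vehicle. The part of neutrophils was not tested.

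*Ltc4s* and *Alox15* were the remaining lipid enzymes of BM. *Ltc4s* (chromosome 11, 50236461 to 50238616, minus strand), leukotriene C4 synthase, had few counts, with 22.5, 40.7 and 17.2 in WT and 19.3, 3.22 and 15.6 in Vehicle (log2 fold change -1.09, SE 0.46, adjusted p = 0.0315). These groups overlapped, and the call was lost without WT library 2 (log2 fold change -0.66, adjusted p = 0.235) or without Vehicle library 2 (-0.62, adjusted p = 0.226). *Alox15* (chromosome 11, 70344152 to 70352031, minus strand) had 569.6, 676 and 638 in WT and 293, 341 and 314 in Vehicle (log2 fold change -0.99, SE 0.082, adjusted p = 6.55e-14), just under the fold limit, and it was called without WT library 1 (-1.06, 6 enzymes in all) or without Vehicle library 2 (-1.05). Its lowest libraries were those of GLP1RA, at 222, 209 and 213, and Combo libraries, at 537, 537 and 536, lay above Vehicle (log2 fold change 0.76, SE 0.084, adjusted p = 1.45e-10). Eosinophil markers, from cells that can express *Alox15* and *Ltc4s*, summed to 33942–35710 in WT BM, 23727–25369 in Vehicle, 20604–20976 in GLP1RA, 23250–23492 in Anti-IL17A and 24090–24816 in Combo, and their part in the *Alox15* result was not tested.

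In ATMs most of the synthases were lower in Vehicle than in WT. Vehicle libraries had 9.47-fold less *Ptgs1*, 8.79-fold less *Ltc4s*, 5.56-fold less *Tbxas1* and 4.09-fold less *Ptgs2* than WT libraries, and 3.73-fold more *Alox5ap*. Of the 10 enzymes 1 was called higher and 5 lower, beside 35.4% of all genes tested (12.5% higher and 22.9% lower), and 8 passed the adjusted p alone, beside 56.9%. So many genes were called in ATMs that the counts are not read as particular to these enzymes. Against Vehicle, GLP1RA had 3 enzymes called higher and 1 lower, beside 31.8% of all genes tested (20.8% higher and 10.9% lower). Anti-IL17A had 3 higher and 2 lower, beside 35.5% of all genes tested (22.4% higher and 13.1% lower). Combo had 4 higher and 2 lower, beside 26.4% of all genes tested (14.1% higher and 12.2% lower). Past the adjusted p alone were 9, 9 and 7 enzymes, beside 53.8%, 58.1% and 48.7% of all genes. *Tbxas1*, *Hpgds* and *Ltc4s* were called higher in each of these 3 comparisons, which share the Vehicle libraries. All 10 enzymes differed among the 5 groups, beside 73.5% of all genes.

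The fold changes of ATMs sit on a shifted background. Vehicle against WT had a median log2 fold change of -1.16 over the 10 enzymes and -0.21 over all genes, and against Vehicle the medians were 0.38 and 0.19 for GLP1RA, 0.30 and 0.17 for Anti-IL17A, and 0.39 and 0 for Combo. Replicates were also further apart than in BM (a biological coefficient of variation of 32.5%). Marker genes of several other cell types moved with the groups. Against WT, Vehicle ATMs had 7 of 7 neutrophil genes and 7 of 8 mast cell and basophil genes called higher and 5 of 5 mesothelial genes called lower, with 3 higher and 5 lower among 10 monocyte and macrophage genes. Mast cell and basophil markers summed to 8405–8688 in WT and 57328–62503 in Vehicle, and summed mesothelial markers were 42344–44240 and 5513–6464. Fibroblast and endothelial genes summed to 451472–477085 in WT ATMs and 204368–214060 in Vehicle ATMs. Of these 7 genes 2 were called higher and 3 lower in Vehicle (median log2 fold change -0.37). Genes of the epididymis summed to 98868–103830 in WT ATMs, while *Gpx5* and *Lcn5* were at 0 in every Vehicle library, and genes of pancreatic acinar cells reached 33957–35427 in Combo ATMs. The part of these cells in the enzyme results was not tested.

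**Figure D3:**
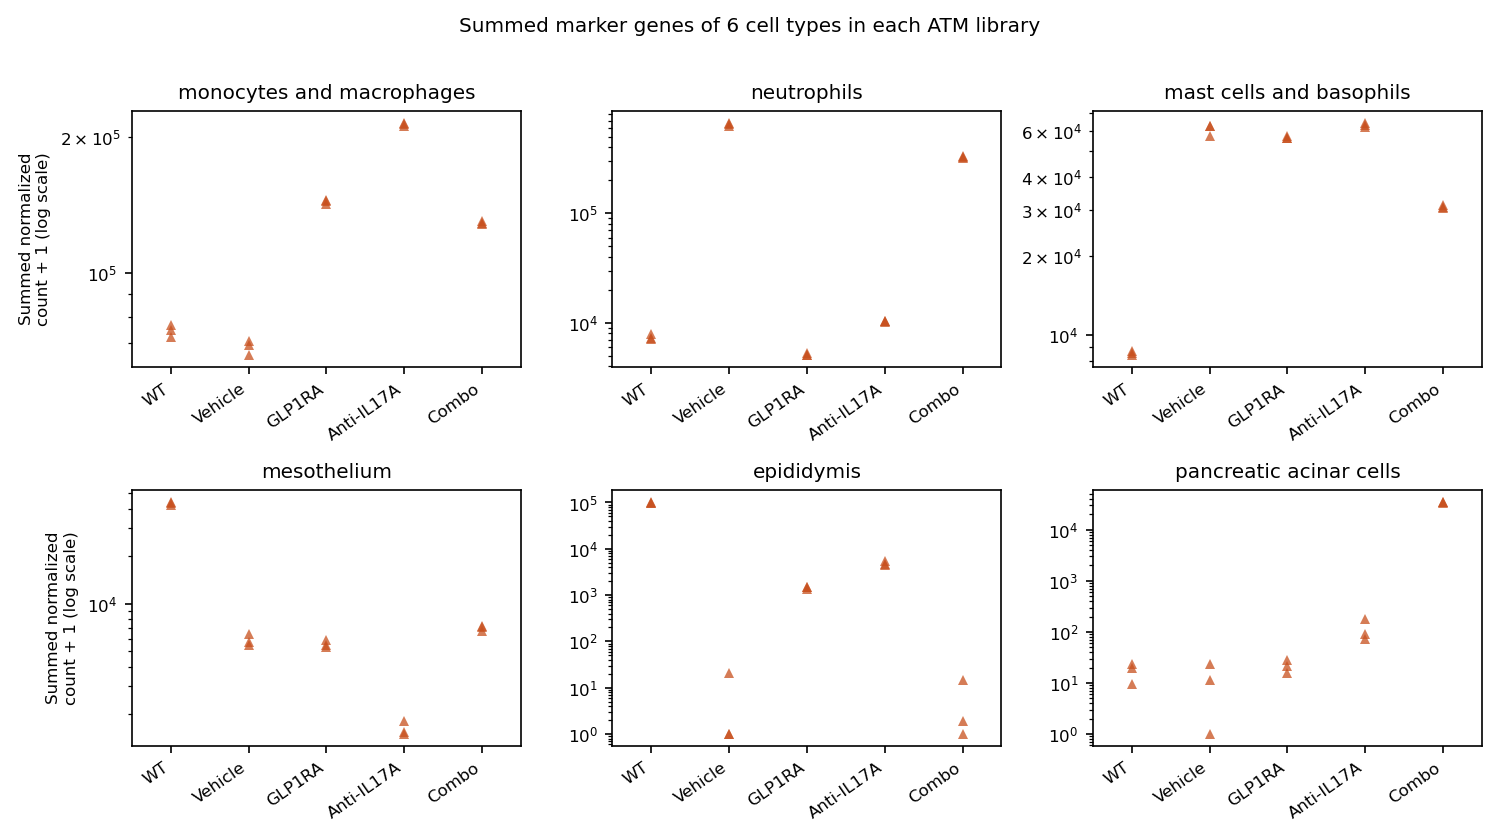
Summed normalized counts of marker genes (log axis) in every ATM library, by group. Shown are monocytes and macrophages, neutrophils, mast cells and basophils, mesothelium, epididymis and pancreatic acinar cells. Neutrophil markers reach 628589–670031 in Vehicle and 321506–331873 in Combo but at most 10423 in the other 3 groups, while monocyte and macrophage markers stay between 65900 and 214448.

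Both cyclooxygenases were called lower in every Ob/Ob group of ATMs than in WT. *Ptgs1* libraries held 8998, 8863 and 8328 normalized counts in WT and 1006, 920.3 and 838 in Vehicle (log2 fold change -3.24, SE 0.10, adjusted p = 2.76e-13). GLP1RA libraries, at 1612, 1611 and 1562, Anti-IL17A libraries, at 1085, 1441 and 1337, and Combo libraries, at 1484, 1517 and 1466, were all above Vehicle by less than the fold limit and all below WT. For *Ptgs2* the values were 36059, 37817 and 37080 in WT and 8623, 9021 and 9458 in Vehicle (log2 fold change -2.03, SE 0.074, adjusted p = 1.89e-12). Unlike in BM, treated groups were lower still, with 6918, 6424 and 6683 in GLP1RA (log2 fold change -0.44, SE 0.072, adjusted p = 1.06e-04), 2365, 2627 and 2908 in Anti-IL17A (log2 fold change -1.78, SE 0.075, adjusted p = 1.08e-11) and 4010, 3583 and 3344 in Combo (log2 fold change -1.31, SE 0.074, adjusted p = 5.07e-10). No pair of neighbours overlapped in the order WT, Vehicle, GLP1RA, Combo and Anti-IL17A. Mesothelial marker sums were also highest in WT and lowest in Anti-IL17A (1494–1797). The 5 mesothelial genes did not all follow this sum. Against Vehicle, 2 were called higher and 1 lower in Anti-IL17A, with a median log2 fold change of 0.57. GLP1RA had 4 called higher and 1 lower, and Combo 3 higher and 1 lower. The part of mesothelial cells was not tested. Per 1000 counts of monocyte and macrophage markers, a measure chosen after the values were seen, *Ptgs2* was 496 ± 11.4 in WT, 132 ± 6.59 in Vehicle and 12.4 ± 1.37 in Anti-IL17A. Per 1000 counts of mesothelial markers the order was another, with *Ptgs2* at 851 ± 3.35 in WT, 1545 ± 183 in Vehicle and 1635 ± 117 in Anti-IL17A. Per 1000 counts of *Adgre1* alone *Ptgs2* libraries lay at 4867 to 5646 in WT and 5191 to 8607 in Vehicle, which overlapped. On that scale Anti-IL17A libraries lay at 79.7 to 101.

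*Ptges* followed the same group order as *Ptgs2* in ATMs. It had 9708, 10269 and 10831 in WT and 6063, 6244 and 5879 in Vehicle (log2 fold change -0.76, SE 0.093, adjusted p = 4.09e-06), which was under the fold limit. Anti-IL17A libraries, at 1413, 1097 and 1346, lay 4.71-fold below Vehicle (log2 fold change -2.24, SE 0.097, adjusted p = 1.67e-11). Combo libraries, at 2591, 2107 and 2397, lay 2.56-fold below it (log2 fold change -1.36, SE 0.094, adjusted p = 7.05e-09), and GLP1RA libraries, at 3430, 3620 and 3179, were lower by less than the limit. The pair of enzymes that makes inducible prostaglandin E2 thus had its highest transcript levels in WT and its lowest in Anti-IL17A.

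In treated groups against Vehicle, the thromboxane and prostaglandin D2 synthases ran the other way, both being higher. In Vehicle against WT *Tbxas1* was lower, as *Ptgs2* and *Ptges* were. *Tbxas1* had 2069, 1963 and 2224 in WT and 269.8, 569 and 287 in Vehicle (log2 fold change -2.48, SE 0.20, adjusted p = 3.21e-08). GLP1RA libraries held 3810, 3889 and 3480 (log2 fold change 3.31, SE 0.20, adjusted p = 1.3e-09), Anti-IL17A libraries 6584, 6801 and 6982 (log2 fold change 4.18, SE 0.21, adjusted p = 9.05e-11) and Combo libraries 3847, 3153 and 3670 (log2 fold change 3.25, SE 0.20, adjusted p = 1.74e-09). Every treated library was above every WT library, which in turn was above every Vehicle library, and Anti-IL17A stood 18.1-fold above Vehicle. *Tbxas1* is expressed in macrophages, whose summed markers were 210569–214448 in Anti-IL17A and 65900–70671 in Vehicle. Per 1000 of these marker counts *Tbxas1* was 27.9 ± 1.47 in WT, 5.53 ± 2.69 in Vehicle, 25.9 ± 1.20 in GLP1RA, 31.9 ± 1.16 in Anti-IL17A and 27.5 ± 2.70 in Combo. Per 1000 counts of *Adgre1* alone the libraries lay at 292 to 324 in WT, 195 to 328 in Vehicle, 260 to 306 in GLP1RA, 222 to 243 in Anti-IL17A and 237 to 286 in Combo. Vehicle had the lowest mean on the first scale and overlapped all 4 other groups on the second.

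*Hpgds* in ATMs was called higher in all 3 treated groups than in Vehicle and than in WT. WT libraries had 692, 578 and 593 and Vehicle libraries 653, 446 and 429.6, which overlapped (log2 fold change -0.28, SE 0.15, adjusted p = 0.126). GLP1RA libraries held 2164, 2456 and 2499 (log2 fold change 2.22, SE 0.15, adjusted p = 5.98e-09), Anti-IL17A libraries 4479, 4498 and 4588 (log2 fold change 3.15, SE 0.16, adjusted p = 9.48e-11) and Combo libraries 2768, 2585 and 2045 (log2 fold change 2.27, SE 0.15, adjusted p = 4.8e-09). Per 1000 counts of monocyte and macrophage markers *Hpgds* was 8.34 ± 1.05 in WT, 7.42 ± 1.76 in Vehicle, 16.5 ± 1.34 in GLP1RA, 21.3 ± 0.464 in Anti-IL17A and 19.1 ± 3.02 in Combo. The order turned per 1000 counts of *Adgre1* alone, where Vehicle libraries were highest at 257 to 652. On that scale the others lay at 77.8 to 108 in WT, 174 to 189 in GLP1RA, 151 to 160 in Anti-IL17A and 156 to 206 in Combo. Mast cells also make this enzyme, and their markers summed to 57328–62503 in Vehicle and 61934–64270 in Anti-IL17A. Adipocyte markers summed to 18884–19126 in WT, 11881–13587 in Vehicle, 61062–63774 in GLP1RA, 118198–120500 in Anti-IL17A and 75489–76770 in Combo, the same order of groups as *Hpgds*. The 6 adipocyte genes did not all follow their sum. Against Vehicle, 2 were called higher and 1 lower in GLP1RA, and 2 higher and 0 lower in Anti-IL17A and in Combo. Their median log2 fold changes were -0.55 in GLP1RA, -0.17 in Anti-IL17A and 0.47 in Combo. The part of mast cells and adipocytes in the *Hpgds* result was not tested.

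In the leukotriene branch of ATMs, *Alox5ap* had 1478, 1751 and 1829 in WT and 6822, 6027 and 6015 in Vehicle (log2 fold change 1.90, SE 0.081, adjusted p = 1.35e-11). GLP1RA libraries, at 2971, 2825 and 2869, were 2.18-fold below Vehicle (log2 fold change -1.12, SE 0.079, adjusted p = 7.97e-09), whereas Combo libraries, at 6100, 6097 and 6471, overlapped Vehicle. *Alox5ap* is abundant in neutrophils, whose markers were high in Vehicle and Combo ATMs and summed to 10240–10423 in Anti-IL17A, where *Alox5ap* libraries held 5104, 4610 and 4692. The part of neutrophils was not tested. *Alox5* itself had 1321, 1321 and 1538 in WT, 2163, 1607 and 1338 in Vehicle and 1477, 2209 and 1723 in Combo, 3 groups that overlapped, and was not called in any comparison with Vehicle. Its lowest mean was that of GLP1RA, with libraries at 807, 909 and 1103 (log2 fold change -0.86, SE 0.18, adjusted p = 0.00105), which overlapped Anti-IL17A.

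*Lta4h* had 2238, 2344 and 2327 in WT ATMs, 1125, 1592 and 1414 in Vehicle and 4377, 4354 and 4099 in Combo, which was 3.11-fold above Vehicle (log2 fold change 1.64, SE 0.12, adjusted p = 9.98e-09). Anti-IL17A lay at the fold limit (log2 fold change 1.00, SE 0.12, adjusted p = 2.28e-06) and was called with DESeq2 and with 3 other settings that kept every library. *Ltc4s* showed the wider range, with 646, 562 and 681 in WT and 84.2, 58.7 and 71.8 in Vehicle (log2 fold change -3.13, SE 0.23, adjusted p = 7.78e-09). GLP1RA libraries held 296, 289 and 216 (log2 fold change 1.89, SE 0.22, adjusted p = 2.28e-06), Anti-IL17A libraries 240.4, 276 and 231 (log2 fold change 1.80, SE 0.22, adjusted p = 3.57e-06) and Combo libraries 365, 341 and 357 (log2 fold change 2.30, SE 0.22, adjusted p = 2.94e-07). All treated libraries were above Vehicle and below WT. Per 1000 counts of monocyte and macrophage markers *Ltc4s* was 8.44 ± 0.796 in WT, 1.04 ± 0.162 in Vehicle, 1.85 ± 0.290 in GLP1RA, 1.17 ± 0.103 in Anti-IL17A and 2.74 ± 0.0883 in Combo. The gap between Anti-IL17A and Vehicle was thus small on that scale. Per 1000 counts of *Adgre1* alone the order was another, with means of 91.3 in WT, 55.5 in Vehicle, 20.7 in GLP1RA, 8.59 in Anti-IL17A and 26.7 in Combo. Every Vehicle library was above every treated library there.

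*Alox15*, which large peritoneal macrophages and eosinophils express strongly, had 1243, 1324 and 1279 in WT ATMs and 403, 251 and 649.6 in Vehicle (log2 fold change -1.56, SE 0.30, adjusted p = 3.71e-04). Vehicle library 3 was the highest of its group, and the 3 treated groups, with means of 426 ± 52.8 in GLP1RA, 471 ± 95.2 in Anti-IL17A and 353 ± 119.7 in Combo, overlapped Vehicle. *Gata6*, the defining factor of large peritoneal macrophages, averaged 1318 in WT and 442 in Vehicle (log2 fold change -1.57, SE 0.19, adjusted p = 2.9e-06). The 6 markers of these cells together summed to 3522–3724 in WT and 2883–3379 in Vehicle, with 1 called higher and 4 lower, and eosinophil markers summed to 1050–1200 in WT and 367–452 in Vehicle with *Epx* at 0 in the latter. Their part in the *Alox15* result was not tested.

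**Figure D4:**
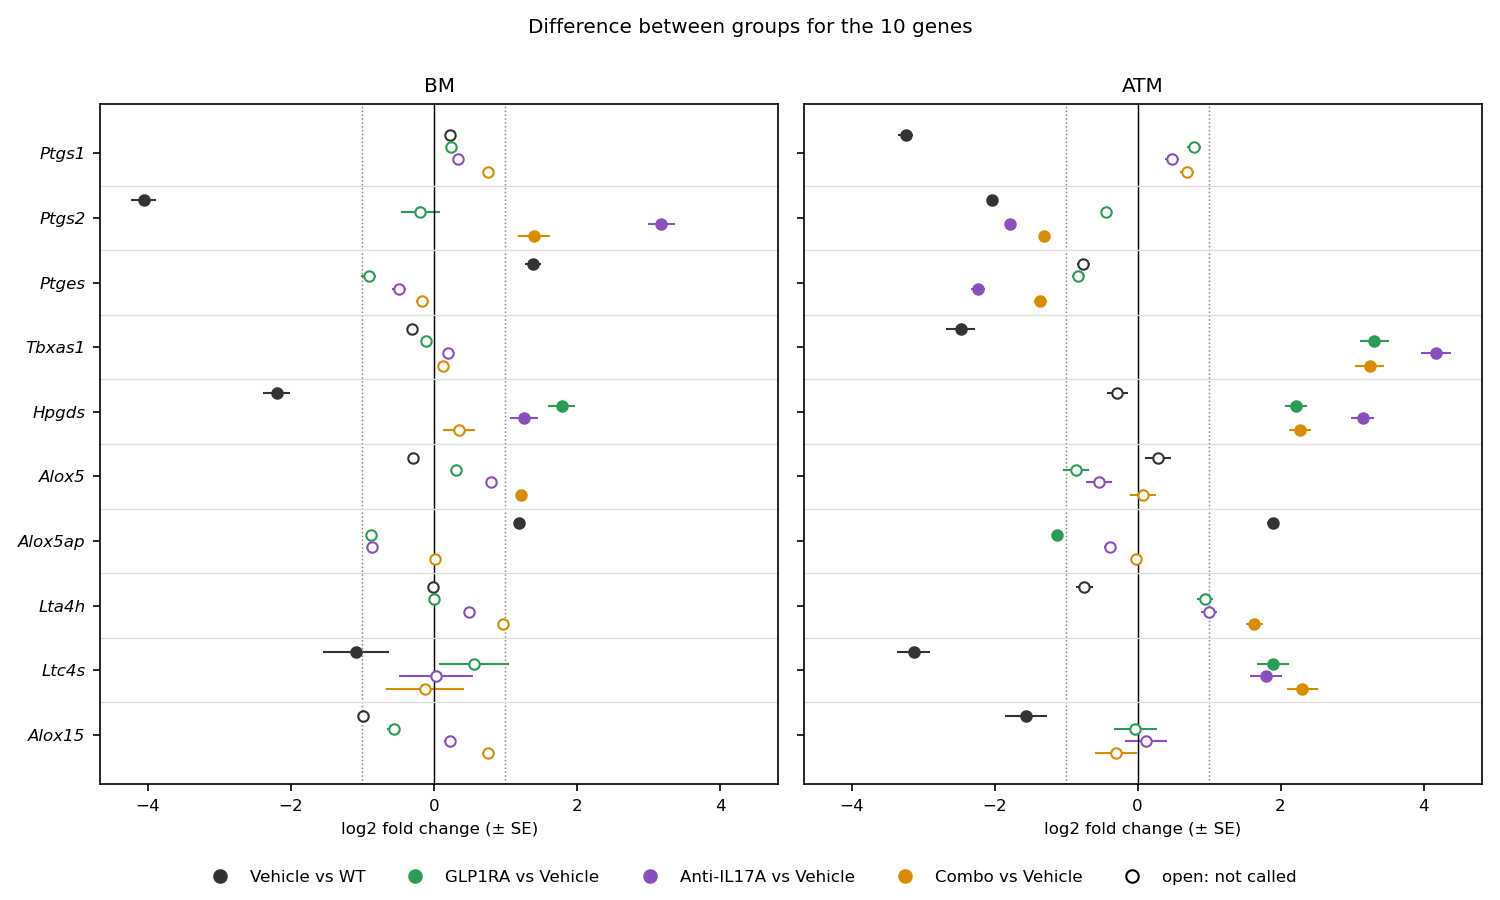
Log2 fold changes of the 10 enzymes with error bars of 1 SE for Vehicle against WT and for each treated group against Vehicle, BM and ATMs separately. In Vehicle against WT, *Ptgs2* lies at -4.06 in BM, and *Tbxas1* in ATMs moves from -2.48 there to 4.18 in Anti-IL17A against Vehicle.

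Treated groups were then set against WT and against each other. In BM, Combo against WT had 5 enzymes called (*Ptges* and *Alox5ap* higher; *Ptgs2*, *Hpgds* and *Ltc4s* lower), beside 14.3% of all genes. GLP1RA against WT had 2 called in BM (*Ptgs2* at -4.25 and *Alox15* at -1.55 on the log2 scale), beside 14.7%, and Anti-IL17A against WT had only *Ltc4s* (-1.06), beside 6.32%. The *Ltc4s* calls against WT were lost without WT library 2 for Combo (-0.79, adjusted p = 0.161) and Anti-IL17A (-0.63, adjusted p = 0.267), and also without Combo library 2 (-1.05) or 3 (-0.93) and Anti-IL17A library 1 (-1.08) or 3 (-0.73). Without WT library 1 these counts were again 5, 2 and 1. Combo differed from GLP1RA in *Ptgs2* (1.59), *Alox15* (1.32) and *Hpgds* (-1.43), beside 13.2% of all genes. *Ptgs2* alone was called between Combo and Anti-IL17A (-1.78, beside 5.67%) and between GLP1RA and Anti-IL17A (-3.37, beside 5.83%).

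In ATMs, Combo against WT had 6 enzymes called, beside 21.6% of all genes, with *Ptgs1* (-2.55), *Ptgs2* (-3.34), *Ptges* (-2.12) and *Alox15* (-1.86) lower and *Hpgds* (1.99) and *Alox5ap* (1.88) higher. GLP1RA against WT had 6 called, beside 15.1%, with *Hpgds* higher (1.94) and *Ptgs1*, *Ptgs2*, *Ptges*, *Ltc4s* and *Alox15* lower. Anti-IL17A against WT had 8, beside 18.7%, with the same 5 enzymes lower and *Hpgds* (2.87), *Tbxas1* (1.70) and *Alox5ap* (1.51) higher. Between treated groups, *Alox5ap* was called higher in Combo than in GLP1RA (1.11, beside 18.7%), and *Ptgs2* (1.34) and *Ptges* (1.41) were called higher in GLP1RA than in Anti-IL17A (beside 8.1%). Combo against Anti-IL17A had 0 enzymes called by edgeR and 0 by DESeq2, beside 14.2% of all genes, although 9 had an unadjusted p below 0.05 and 7 passed the adjusted p under the fold limit.

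Whether the log2 change with Combo equalled the GLP1RA change plus the Anti-IL17A change was tested as 1 contrast. In BM 5 enzymes departed from that sum, beside 21.1% of all genes. *Alox5ap* (log2 fold change 1.76, SE 0.033, adjusted p = 7.38e-36), *Ptges* (1.24) and *Alox15* (1.10) were higher in Combo than that sum, and *Hpgds* (log2 fold change -2.70, SE 0.26, adjusted p = 8.4e-12) and *Ptgs2* (-1.59) were lower. In ATMs 6 departed, beside 35.9%. *Tbxas1* (log2 fold change -4.25, SE 0.27, adjusted p = 2.14e-09), *Hpgds* (-3.09) and *Ltc4s* (-1.38) lay below the sum, each of them being above Vehicle with either agent alone, and *Ptges* (1.71), *Alox5ap* (1.50) and *Alox5* (1.48) lay above it. *Hpgds* was below and *Alox5ap* and *Ptges* above the sum in both tissues. In ATMs this contrast includes the Vehicle libraries, which carried more neutrophil than macrophage marker counts. The departures were not tested per marker count, and the part of cell types in them was not tested.

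The difference between Vehicle and WT recipients was itself unequal in the 2 tissues for most enzymes, by a test of the difference itself in a joint fit of all 30 libraries. For Vehicle against WT 9 of 10 passed the adjusted p, beside 56% of the 13076 genes in both tables. The ATM effect was below the BM effect most for *Ptgs1* (difference -3.46, SE 0.11, adjusted p = 5.44e-20), and above it most for *Ptgs2* (difference 2.03, SE 0.20, adjusted p = 2.16e-09), which fell in both tissues but further in BM. *Ptges* had opposite signs, higher in Vehicle BM and lower in Vehicle ATMs (difference -2.14, SE 0.15, adjusted p = 1.57e-12). For Combo against Vehicle 8 of 10 passed, beside 55.1%. *Ptgs2*, higher in Combo than in Vehicle in BM and lower in ATMs, had the largest negative value (difference -2.67, SE 0.22, adjusted p = 7.02e-11), and *Tbxas1* the largest positive one (difference 3.16, SE 0.21, adjusted p = 9.83e-13). The spread between replicates was larger in ATMs than in BM, and whole BM and a sorted fraction hold different cells.

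**Figure D5:**
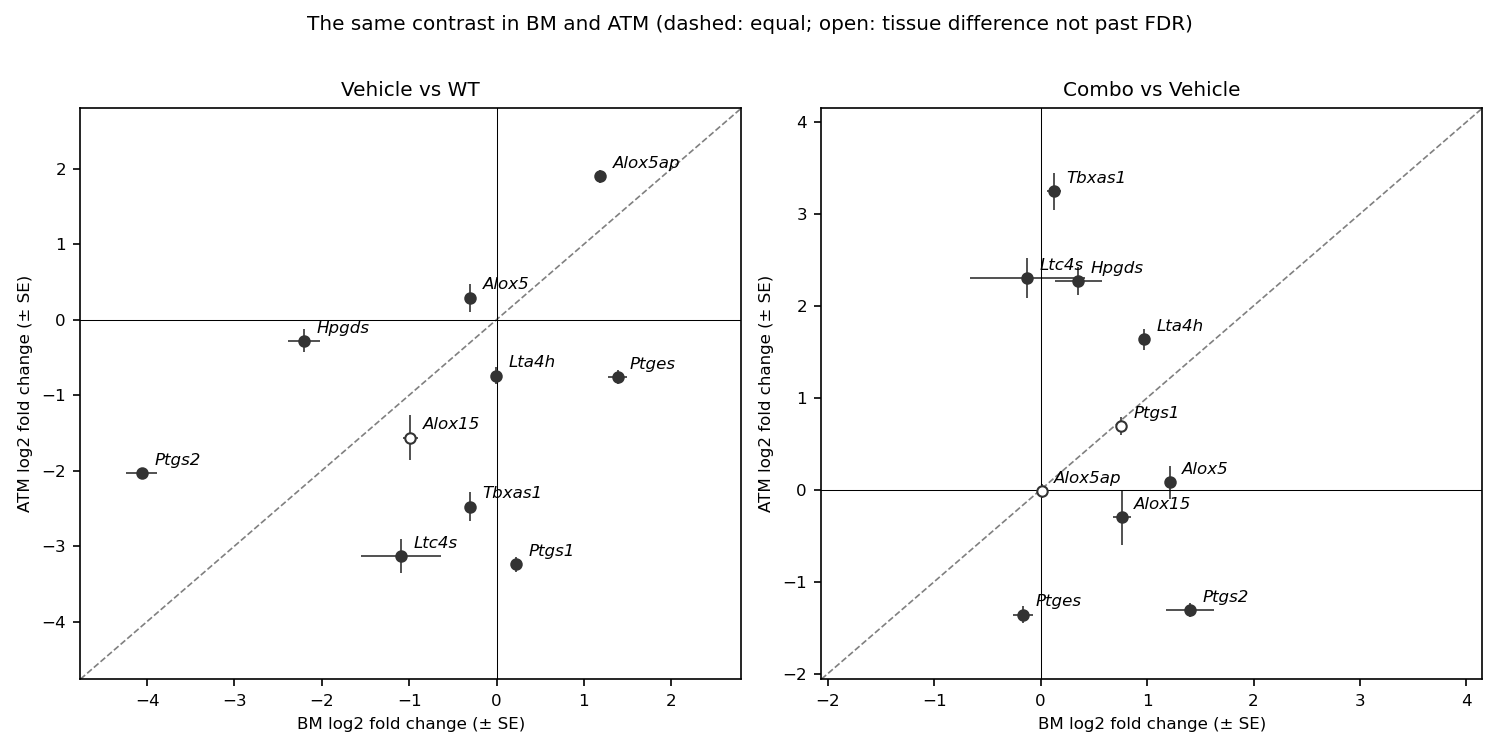
Log2 fold change in BM (horizontal axis) against that in ATMs (vertical axis) for each enzyme, with error bars of 1 SE, for Vehicle against WT and for Combo against Vehicle. *Ptgs2* lies at 1.40 in BM and -1.31 in ATMs for Combo against Vehicle, and *Tbxas1* at 0.12 and 3.25.

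Other genes of the pathway were counted from 6 lists with 58 genes, of which 46 were measured in BM and 51 in ATMs. In Vehicle against WT BM 6 were called higher and 7 lower. *Cmklr1*, a receptor for chemerin and resolvin E1, rose most (log2 fold change 3.44), followed by the leukotriene-cleaving dipeptidase *Dpep2* (2.03), and *Hpgd*, which inactivates prostaglandins, fell most (-4.11). The prostaglandin D2 receptor *Ptgdr* averaged 28.2 in WT and 1.92 in Vehicle. Against Vehicle, GLP1RA BM had 8 higher and 8 lower. The list of leukotriene and lipoxin receptors, which also held *Cmklr1*, had all 5 measured genes called lower (beside 9.08% of all genes). Among them were *Cmklr1* (-2.85), *Cysltr1* (-1.68) and *Cysltr2* (-1.53). Anti-IL17A BM had 6 higher and 5 lower and Combo BM 6 higher and 7 lower. *Hpgd* was higher than Vehicle in GLP1RA (3.76), Anti-IL17A (3.47) and Combo (2.09), and *Cmklr1* lower in Anti-IL17A (-3.25) and Combo (-3.59). Of the measured genes of the lists 28.3% were called for Vehicle against WT in BM, 34.8% for GLP1RA, 23.9% for Anti-IL17A and 28.3% for Combo, beside 19.5%, 16.7%, 16.1% and 17.7% of all genes.

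In ATMs the pathway lists had 6 genes called higher and 18 lower in Vehicle than in WT. The formyl peptide and lipoxin receptor *Fpr2* (5.86), the epidermal-type lipoxygenase *Aloxe3* (5.82) and the leukotriene B4 receptor *Ltb4r1* (1.98) rose most, while the lipocalin-type prostaglandin D synthase *Ptgds* (-6.21), the epoxide hydrolase *Ephx2* (-4.04) and the phospholipase *Pla2g2d* (-3.78) fell most. Neutrophils express *Fpr2* and *Ltb4r1*, and their summed markers moved the same way, which was not tested further. GLP1RA against Vehicle had 12 higher and 7 lower, led by *Ptgds* (4.15) and *Fpr2* (-5.83). Anti-IL17A had 11 higher and 6 lower, led by *Ptgds* (6.27) and *Fpr2* (-4.49). The oxoglutarate and leukotriene E4 receptor *Oxgr1* was at 0 in every Vehicle library and averaged 77.6 in Anti-IL17A, at least 18.1-fold higher than a floor of 3 counts per library. Combo had 13 higher and 4 lower, led by the cysteinyl leukotriene receptor *Cysltr1* (2.78), the prostaglandin E2 receptor *Ptger3* (2.63) and *Aloxe3* (-4.87). Of the measured genes of the lists 47.1% were called for Vehicle against WT in ATMs, 37.3% for GLP1RA, 33.3% for Anti-IL17A and 33.3% for Combo, beside 35.4%, 31.8%, 35.5% and 26.4% of all genes.

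The genes whose pattern over the 15 libraries of a tissue was most like that of an enzyme are given as a description, since libraries of a group share their treatment and every gene with the same group means will rank high. In ATMs *Tbxas1* was closest to *Adgre1*, the F4/80 gene (Pearson r of log2 CPM 0.991, n = 15 libraries), *Rgs10* (0.990) and *Rab3il1* (0.987). *Ltc4s* was closest to *0610011F06Rik* (0.982), the macrophage lectin *Mgl2* (0.980) and *Ramp1* (0.979), and *Alox5ap* to *Hcls1* (0.986). *Ptgs1* in ATMs was closest to *Gstm2* (0.985), *Ptgs2* to *Fxyd4* (0.974) and *Alox15* to *Epb4.1l5* (0.934). In BM *Ptgs2* was closest to *Tmem45a2* (0.985), *Ptges* to *Rhbdf2* (0.974), *Alox5ap* to *B4galt3* (0.989), *Hpgds* to *2610008E11Rik* (0.982) and *Ltc4s* to *Arhgap29* (0.842).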

How the data were processed

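RNA-seq was made from polyA RNA of whole BM and of sorted ATMs (paired-end, unstranded, NovaSeq X Plus). Per the submitters' processing notes and the study's methods, the authors aligned reads with STAR 2.7.2a to mm10 and counted fragments per gene with featureCounts 2.0.1, without strand and with reads over several genes counted for each, so overlapping genes share reads. The deposited files are raw counts, 1 table per tissue, and a low-count filter of the authors is not given in the sources used here. Columns were matched to samples by library name, and 0 columns belonged to no sample.

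From these counts, edgeR 4.0.16 (R 4.3.3; TMM factors, robust quasi-likelihood fit of all 15 libraries of a tissue) gave log2 fold changes, their SE (the size of the change over the square root of F) and Benjamini-Hochberg adjusted p-values over all genes of that tissue. filterByExpr removed 0 genes. Genes were called below an adjusted p of 0.05 and beyond an absolute log2 fold change of 1, the study's limits. The tissue difference was tested as an interaction over genes in both tables. Scripts were tested on simulated data. Alternatives were DESeq2 1.42.0 and its size factors, limma 3.58.1 voom, stricter count filters, no fold limit, a replicate block, only the libraries compared, and each library left out. The SEs and SDs cover the spread between replicate libraries, and the floor used for *Oxgr1* covers counting error only. All 10 enzymes were named whatever they showed, and of the other pathway genes up to 3 called higher and 3 lower per comparison by size, with a mean count of at least 10. The members and lists were chosen with earlier results of these data known. Exon lengths and coordinates came from GENCODE M21 on GRCm38, promoters from RefSeq.

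Libraries of equal number did not deviate together (correlations of -0.070 to 0.147 in BM and -0.042 to 0.031 in ATMs), so they were not treated as pairs. No pair of replicates was identical or within sampling noise.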

Additional observations from a re-analysis of the deposited data

Results flagged for a closer look

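The difference between ATMs and BM in the same comparison, tested as an interaction (edgeR, adjusted over 13076 genes), passed the adjusted p for 17 values, all given as the ATM minus the BM log2 fold change. The 2 tissues come from the same groups but hold different cells, and whole BM was not sorted. For Vehicle against WT the prostanoid enzymes differed by -3.46 for *Ptgs1*, 2.03 for *Ptgs2*, -2.14 for *Ptges*, -2.17 for *Tbxas1* and 1.92 for *Hpgds*. The leukotriene enzymes differed by 0.59 for *Alox5*, 0.72 for *Alox5ap*, -0.73 for *Lta4h* and -2.04 for *Ltc4s*. *Alox15* did not pass (-0.57, adjusted p = 0.132).

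For Combo against Vehicle the prostanoid enzymes differed by -2.67 for *Ptgs2*, -1.16 for *Ptges*, 3.16 for *Tbxas1* and 1.96 for *Hpgds*. The lipoxygenase branch differed by -1.09 for *Alox5*, 0.71 for *Lta4h*, 2.48 for *Ltc4s* and -1.02 for *Alox15*, the last with an adjusted p of 0.0506 when ATM Vehicle library 3 was left out (-0.65). *Ptgs1* and *Alox5ap* did not pass.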

How the results depend on the processing

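The fold limit was the choice that moved the counts most. With no fold limit the enzymes counted in BM were 9 for Vehicle against WT, 6 for GLP1RA, 9 for Anti-IL17A and 5 for Combo against Vehicle, 8 for the departure of Combo and 51 summed over the other 6 pairs, and in ATMs 9 for GLP1RA, 9 for Anti-IL17A and 44 over the other pairs. No other alternative moved a count by over 1.5 times. Leaving out each library in turn gave 4 to 6 enzymes for Vehicle against WT in BM and 6 in ATMs, and against Vehicle 1 (GLP1RA), 2 (Anti-IL17A) and 2 (Combo) in BM and 4 to 5, 5 to 6 and 6 in ATMs.

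With all libraries kept, signs turned only for changes near 0 that were not called. *Lta4h* in BM turned to 0.0059 with DESeq2 size factors and 0.0058 with DESeq2 for Vehicle against WT, and to 0.0053 with at least 10 counts per library for GLP1RA against Vehicle. *Alox5ap* for Combo against Vehicle turned in BM to -0.0020 with DESeq2 or its size factors, -0.0069 with at least 10 counts and -0.0067 with only the libraries compared, and in ATMs to 0.0100 with at least 10 counts. Its tissue difference turned to -0.098 with DESeq2 or its size factors and -0.023 with at least 10 counts. With the replicate block *Alox15* in GLP1RA against Vehicle ATMs turned to 0.0083, and the block changed no call.

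With each library left out, the changes against Vehicle, those of Vehicle against WT and the departures were examined, and those that spanned 0 in ATMs were *Alox15* from -0.16 to 0.51 (Anti-IL17A), -0.58 to 0.10 (Combo) and -0.31 to 0.37 (GLP1RA), and for Combo *Alox5* from -0.090 to 0.29 and *Alox5ap* from -0.051 to 0.048. In BM they were *Ltc4s* from -0.44 to 0.48 (Anti-IL17A) and -0.76 to 0.33 (Combo), *Alox5ap* from -0.017 to 0.023 (Combo), *Lta4h* from -0.010 to 0.0059 and *Ptgs2* from -0.41 to 0.050 (GLP1RA), *Lta4h* from -0.019 to 0.013 (Vehicle against WT) and *Tbxas1* from -0.0071 to 0.076 (departure), and *Alox5* for GLP1RA against WT went from 0.016 to -0.017 without WT library 1. The tissue difference of Combo against Vehicle spanned 0 for *Alox5ap* (-0.054 to 0.039) and *Ptgs1* (-0.12 to 0.0066).

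Calls at the limits depended on single libraries. *Ltc4s* in BM, with few counts, lost its call against WT for Vehicle with only the libraries compared (adjusted p = 0.0506), for Anti-IL17A with DESeq2 (adjusted p = 0.0521) and for all 3 groups that had one without WT library 2, and it could not be tested with at least 10 counts in every library. *Alox15* in BM gained a call for Vehicle against WT without WT library 1 (-1.06) or Vehicle library 2 (-1.05). In ATMs *Lta4h* gained one for GLP1RA without Vehicle library 2 (1.05) and *Alox5* without Vehicle library 3 (-1.01), and the tissue difference of *Alox15* for Vehicle against WT passed with limma voom (-0.69, adjusted p = 0.0211). The cause of these changes was not tested. Low counts limit *Ltc4s* in BM, and the replicate spread limits ATMs.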
